A study of Mus musculus with 18 samples.

Results

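Cytosolic ribosomal protein genes encode the protein parts of the ribosome that translates messenger RNA outside the mitochondria. They were taken by symbol from the 24391 genes of each deposited table: every gene named Rpl or Rps with a number, and Rplp0, Rplp1, Rplp2 and Rpsa. The S6 kinase genes (Rps6k), Rps19bp1 and symbols marked as pseudogenes with -ps were left out, which removed 18 rows, and 87 genes remained. Of these, 43 encode proteins of the large (60S) subunit, 31 proteins of the small (40S) subunit and 3 the P stalk of the large subunit. A further 8 are paralogs of another member (Rpl3l, Rpl7l1, Rpl10l, Rpl22l1, Rpl36al, Rpl39l, Rps4l and Rps27l), and 2 are retrotransposed copies (Rpl37rt and Rps27rt).

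A ribosome holds 1 copy of nearly every core ribosomal protein, and growing cells make these proteins at a high and coordinated rate. Their messages commonly begin with a run of pyrimidines, the terminal oligopyrimidine or TOP element, through which mTORC1 and LARP1 control how strongly they are translated, while MYC raises transcription of the ribosome genes. Activated and dividing T cells depend on this supply, and the 60S protein Rpl22 is required in the mouse for the development of αβ T cells. Some members also act outside the ribosome: Rpl5 and Rpl11, bound to 5S ribosomal RNA, can hold the p53 inhibitor Mdm2.

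RNA of E2-10HA, a mouse hybridoma line described as mature T cells, was sequenced in 18 libraries made from ribosome-depleted total RNA with a stranded kit. For the knockdown, cells carried either the hairpin shRNA_1 against L3MBTL3 or a scramble hairpin, both in pLKO.1 puro, with 3 libraries for each. In the rescue experiment, all cells were depleted of RBPJ. They were infected with Flag-mRBPJ F261A/A284V, with Flag-mRBPJ WT or with the empty vector pMY-Bio IRES Blasticidin, and each group had 4 libraries. RBPJ is the DNA-binding factor of Notch signalling, L3MBTL3 has been described as its partner, and both substitutions lie in a part of RBPJ that contacts Notch and corepressors. A single hairpin stood for the knockdown, all libraries came from 1 cell line, and the labels do not say that replicates were separate cultures, so the p-values speak only of the spread among these libraries, which may be technical. In RNA from bulk cells, fewer expressing cells and less RNA per cell cannot be told apart.

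The values are read counts divided by 1 size factor per library (normalized counts), from which whole reads were recovered. L3mbtl3 had 394, 371 and 369.6 normalized counts in the L3MBTL3 shRNA libraries, against 467, 447.5 and 351.5 in scramble. Scramble replicate 3 thus had less L3mbtl3 than each L3MBTL3 shRNA library, against its label, and L3mbtl3 did not pass the test (log2 -0.15, SE 0.107, limma adjusted p = 0.402), so directions in the knockdown are those of the labels. Rbpj was at 685.5 to 922 in the F261A/A284V libraries and 627 to 818 in RBPJ WT, against 255 to 317 in empty vector. Recovered reads per library were 4882485 to 6129134 in the knockdown. In the rescue they were 3553505 to 4239479 in replicates 3 and 4 and 5923799 to 7921533 in replicates 1 and 2, a division that no label names and that is called the replicate divide here. Empty vector 1 and 2, RBPJ WT 1 and 2, and F261A/A284V 3 and 4 differed by less than counting noise. Their chi-square per degree of freedom was 0.8503, 0.706 and 0.813, against 1.06 to 17.98 for the other rescue pairs. Each of these 3 pairs counts as 1 sample in group means given with an SD. Group means without an SD take every library. Of the T cell markers listed, 7 of 9 were in the tables and summed to 3497 to 3855 normalized counts in the knockdown and 2535 to 3813 in the rescue libraries. Markers of B cells, NK cells and stroma summed to at most 4.62, those of erythroid cells to at most 28.5, and those of myeloid cells to 251.8 to 408 in the knockdown and 235 to 312 in the rescue. Of the myeloid markers, Cd68 averaged 264 in L3MBTL3 shRNA and 342 in scramble.

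The ribosomal protein genes had more reads for their length than the typical gene. In the knockdown libraries, the 84 members tested in the rescue had a median of 0.439 reads per base of transcript, against 0.144 for all tested genes. The highest was Rpl22, at 2.30 reads per base, followed by Rpl8, a 60S protein near the site of peptide bond formation, at 0.890, and by the 60S protein gene Rpl15, at 0.848. At the low end stood Rpl3l, known from heart and skeletal muscle, at 0.00436, the 40S genes Rps20 at 0.0798 and Rps15a at 0.0804. The lengths used for Rps20 and Rps15a, 3706 and 5130 bases, are those of long annotated transcripts in a GRCm38 annotation, which lowers their value per base. The length used for Rpl22 was 474 bases. Of equally ranked transcripts the shortest was taken, which can raise a value per base, so the rank of Rpl22 depends on that length. Across the 84 members, reads per gene and transcript length correlated at a Spearman rho of 0.57, a description over genes that share libraries.

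Some members had almost no reads in this line. Rpl10l and Rpl39l, paralogs known from the testis, and Rps4l, a retrogene relative of Rps4x, held at most 2 reads in any library. Their parents were abundant: Rps4x held 500 to 597 reads in every library, Rpl10 353 to 484 and Rpl39 158 to 204. Rpl3l held 4 to 19 reads, and passed the filter on low values in the rescue but not in the knockdown. Thus 83 members were tested in the knockdown and 84 in the rescue.

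Several members have copies that may share their reads. Rpl26 had the same values as the gene model Gm15772 in both tables. Rpl37rt averaged 270.5 normalized counts in the knockdown libraries against 284.3 for its parent Rpl37, and Rps27rt averaged 162 against 205 for Rps27. Rpl14-ps1, outside the set, averaged 505 against 503 for Rpl14. How the authors divided reads between such copies is not known here, so the levels of these genes are uncertain.

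Promoters of the members shared sequence features that the choice by symbol did not use. RefSeq windows from 250 bases before to 50 after the annotated gene start (GRCm38.p6) were present for 66 of the 87 genes. A run of at least 8 C or T within 25 bases of the start stood in 33 of the 66 (50%), against 22.25% of 27025 genes. The ETS factor motif CCGGAAG, searched on both strands, was in 26 of 66 (39.4%), against 9.93% of all genes. The RBPJ motif GTGGGAA, also on both strands, was in 7 of 66 (10.6%), against 7.25% of all genes: Rpl22l1, Rpl23, Rpl36a, Rpl39, Rpl3l, Rps27rt and Rps3a1. A match is only a run of letters and shows no binding. The next lines give 40 bases before and 20 after the annotated start of members on which the results below turn, with pyrimidine runs of at least 8 that lie within 25 bases of that start in capitals, on the strand of the gene: Rps6 (chr4:86857348-86857407, minus), Rplp2 (chr7:141447611-141447670, plus), Rps27 (chr3:90213629-90213688, minus), Rpl22 (chr4:152325686-152325745, plus), Rpl22l1 (chr3:28805468-28805527, plus) and Rpl7l1 (chr17:46782637-46782696, minus).
Rps6: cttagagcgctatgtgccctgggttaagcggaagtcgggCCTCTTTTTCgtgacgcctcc
Rplp2: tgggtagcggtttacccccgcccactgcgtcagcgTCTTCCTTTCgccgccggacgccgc
Rps27: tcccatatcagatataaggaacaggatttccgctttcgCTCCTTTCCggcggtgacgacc
Rpl22: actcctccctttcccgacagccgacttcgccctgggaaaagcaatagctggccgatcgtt
Rpl22l1: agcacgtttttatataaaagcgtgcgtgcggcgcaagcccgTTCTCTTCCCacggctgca
Rpl7l1: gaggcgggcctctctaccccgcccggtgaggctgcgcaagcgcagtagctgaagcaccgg

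The runs in Rps6, Rplp2, Rps27 and Rpl22l1 lie at or near the annotated start, whereas the windows of Rpl22 and Rpl7l1 hold no run of that length within 25 bases of it; a longer run farther upstream in the Rpl22 line is left in lower case. Rpl22l1 carries the RBPJ motif at 2 places, both on the other strand, so that the letters appear as TTCCCAC in the lines below (capitals mark the motif; chr3:28805312-28805342 and chr3:28805502-28805532).
Rpl22l1 upstream: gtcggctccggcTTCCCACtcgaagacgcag
Rpl22l1 at the start: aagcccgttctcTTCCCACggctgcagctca

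Reads in the ribosomal protein genes changed little between libraries while the libraries' depth changed a great deal. Over all 18 libraries, depth varied 2.23-fold and the summed reads of the 87 genes only 1.3-fold, between 26278 and 34254. Their share of all recovered reads was therefore highest in the shallowest libraries. In the rescue it was 0.749% and 0.712% in F261A/A284V replicates 3 and 4, against 0.491% and 0.425% in replicates 1 and 2 of the same group. RBPJ WT libraries had 0.660% and 0.692% in replicates 3 and 4, against 0.431% and 0.4297% in replicates 1 and 2. Empty vector libraries had 0.682% and 0.725% in replicates 3 and 4, against 0.434% and 0.462% in replicates 1 and 2. All 6 libraries of replicates 3 and 4 thus lay above all 6 of replicates 1 and 2, whatever the vector. In the knockdown the share was 0.538%, 0.534% and 0.525% in the L3MBTL3 shRNA libraries, against 0.529%, 0.542% and 0.617% in scramble replicates 1, 2 and 3. The exception was scramble replicate 3, which was also the shallowest library of that table. The means were 0.533 ± 0.00662% for L3MBTL3 shRNA and 0.563 ± 0.0475% for scramble (SD, n = 3 each). Over the 18 libraries, share and depth correlated at a Spearman rho of -0.963; the libraries fall on separate sides of the replicate divide, so this is a description, with no test.

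**Figure D1:**
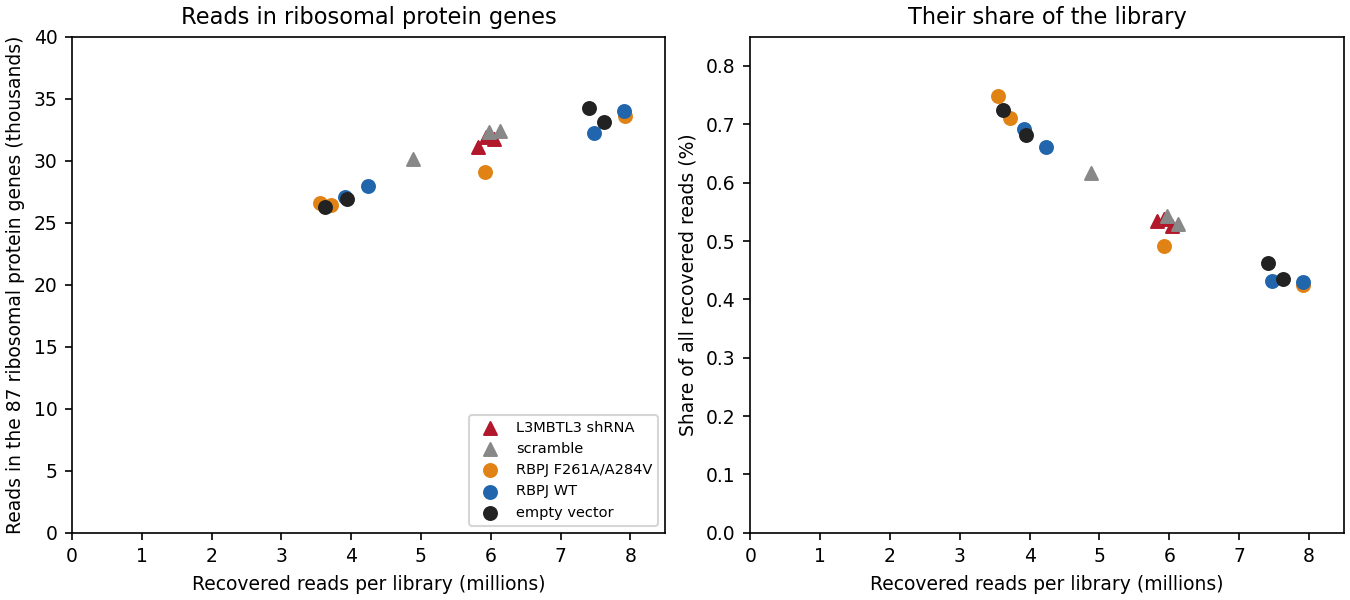
Summed reads in the 87 ribosomal protein genes (left) and their share of all recovered reads in percent (right), each against recovered reads per library; each point is 1 library, triangles from the knockdown and circles from the rescue. Reads in the genes lie between 26278 and 34254 while depth runs from 3553505 to 7921533, and the share is 0.749% in the shallowest library and 0.425% in the deepest.

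The same held gene by gene in the rescue. Replicates 3 and 4 had higher normalized counts than replicates 1 and 2 in 82 of the 84 tested members with no overlap between the 6 and 6 libraries, and lower ones in 0. Over all tested genes, 26.2% were higher and 21.3% lower without overlap. The median log2 difference, replicates 3 and 4 minus 1 and 2, was 0.79 for the members and -0.02 for all tested genes. Expressed as reads, the members' median difference was -0.26, against -1.06 for all tested genes. Against log2 depth, log2 reads had a median slope of 0.28 in the members and 1.13 in all tested genes, where 1 would mean reads in proportion to depth. The median coefficient of variation of the members over the 12 libraries was 10.7% in reads and 28.9% in normalized counts; over all tested genes it was 39.6% and 13.6%. Depth moved with these differences, and its part in them was not tested.

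Rpl8 and Rpl37rt were among the members with the largest differences, at 0.91 each. Rpl8 had 1081 and 1026 normalized counts in F261A/A284V replicates 3 and 4, 932 and 1015 in RBPJ WT and 968 and 1097 in empty vector, against 641 and 501 in F261A/A284V replicates 1 and 2, 519 and 508 in RBPJ WT and 509 and 583 in empty vector. The sides did not overlap. In reads, Rpl8 stood between 698 and 854 in all 12 libraries, with a slope of 0.15 on log2 depth. The 60S, 40S and stalk classes had median differences of 0.80, 0.78 and 0.83. The stalk genes were close to each other: Rplp0, which anchors the stalk, differed by 0.83, and the acidic proteins Rplp1 and Rplp2, which bind translation factors, by 0.87 and 0.79. Rpsa, a 40S protein also known as a laminin receptor, differed by 0.78.

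The smallest differences were those of Rpl7l1 (0.34), Rps15a (0.36) and Rpl15 (0.44). Rpl7l1, whose yeast relative acts in assembly of the large subunit, had 685 and 692 normalized counts in F261A/A284V replicates 3 and 4, 694 and 669 in RBPJ WT and 682 and 719.9 in empty vector. In replicates 1 and 2 it had 580.2 and 524 with F261A/A284V, 546 and 535 with RBPJ WT and 539.6 and 549 with empty vector. Its slope on log2 depth was 0.76, the highest among the tested members. The 5 tested paralogs had a median difference of 0.49 and included both members whose sides overlapped, Rpl22l1 (0.44) and Rpl3l (0.50). Rpl36al, a near-identical paralog of Rpl36a, differed by 0.83, as much as the core proteins.

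**Figure D2:**
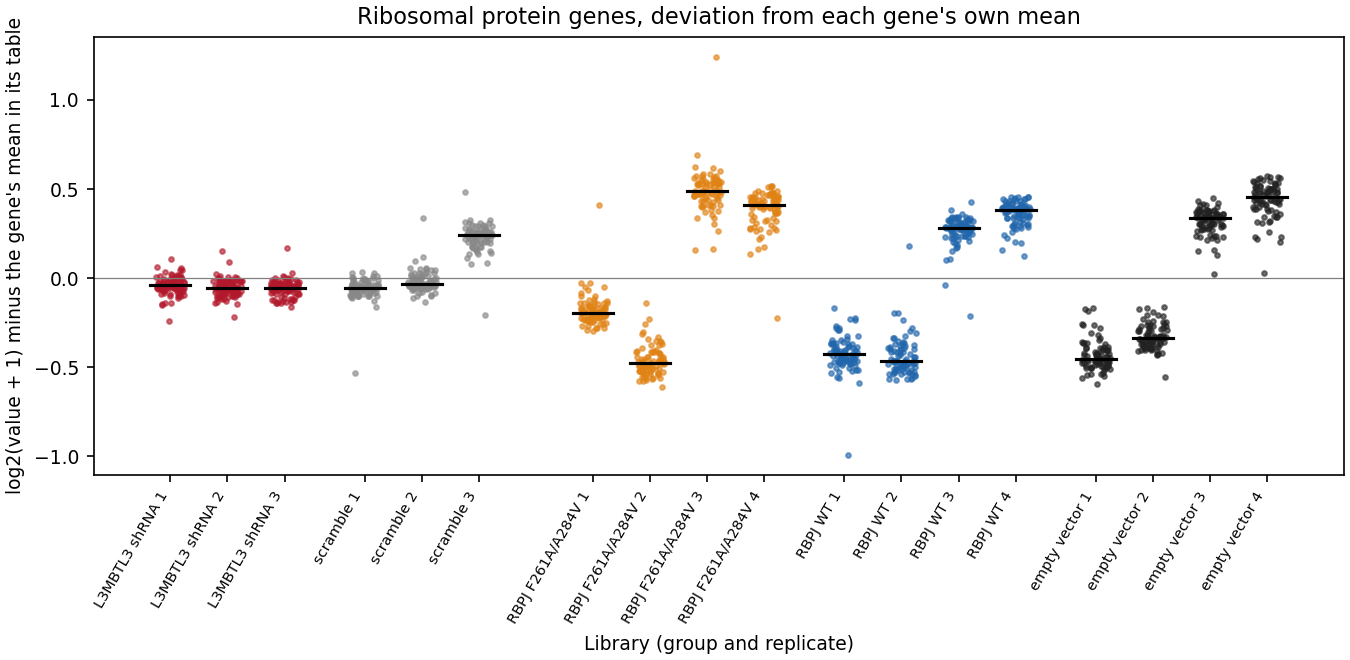
Deviation of each of 84 ribosomal protein genes (points) from its own mean over its table, in log2(normalized count + 1), by library; the black lines are medians, and groups are set side by side. Medians lie between 0.28 and 0.49 in replicates 3 and 4 of every rescue group and between -0.47 and -0.20 in replicates 1 and 2, and in the knockdown scramble replicate 3 has a median of 0.24.

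Density of reads moved with the difference, but not for the members alone. Among genes with at least 0.3 reads per base, the 70 members had a median difference of 0.79 and the 2064 other genes 0.40. Between 0.1 and 0.3 reads per base, 11 members had a median of 0.79 and 4838 other genes 0.03, and below 0.01 the 892 other genes had -0.53. Among the members themselves, density and difference correlated at a Spearman rho of 0.299 over 84 genes, a description. Related lists differed likewise. The 22 translation factors and other TOP messages had a median difference of 0.71 (median density 0.480 reads per base), 77 mitochondrial ribosomal protein genes 0.31 (0.195), 56 ribosome biogenesis factors 0.24 (0.212), 14 genes of RNA polymerase I -0.03 (0.170) and 19 mTORC1 and TOP regulators 0.01 (0.180). A further 12 genes of MYC and ribosome stress had 0.16. The 6 tested T cell markers had 0.42 and the 4 tested myeloid markers 0.01.

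**Figure D3:**
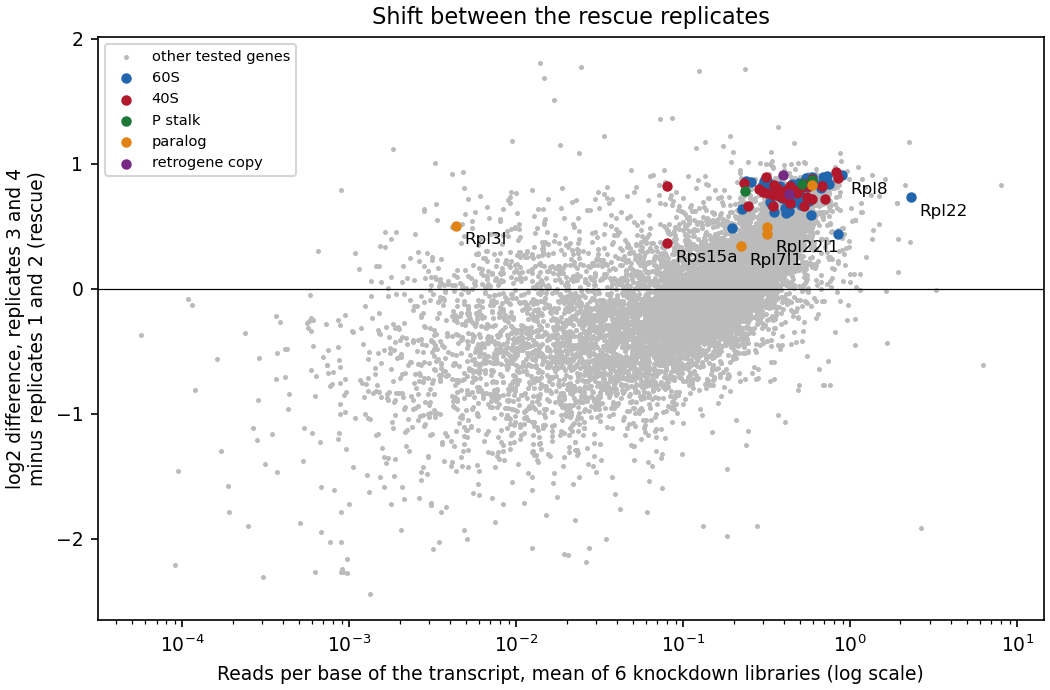
Log2 difference of rescue replicates 3 and 4 minus replicates 1 and 2 (vertical) against reads per base of transcript in the knockdown libraries (horizontal, log scale), with ribosomal protein genes coloured by class and the other tested genes in grey. Most members lie near their median of 0.79, and the lowest are Rps15a, Rpl15, Rpl21 and the paralogs Rpl7l1, Rpl22l1, Rps27l and Rpl3l.

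In the comparison of L3MBTL3 shRNA with scramble, 0 of 83 ribosomal protein genes passed the test (limma, adjusted p under 0.05), where 3.32% of all genes did. At an unadjusted p under 0.05 limma and edgeR each gave 2 members and DESeq2 0, where 25.5% of all genes passed with limma. Of the 83, 82 had a log2 fold change below 0, with a median of -0.10 against -0.01 for all genes. Only Rpl7l1 was above 0. Groups did not overlap for 12 members lower in L3MBTL3 shRNA libraries (background 17.1%) and for 1 higher (background 18.1%), shares no larger than those of all genes. The common direction rested on scramble replicate 3, in which 82 of 83 members lay above their own mean by a median of 0.24. Without that library the median was -0.02 and 31 members lay above 0. With log2 depth as a covariate, a choice made after seeing the data, the median was -0.04 and 16 members lay above 0.

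Rpl7l1 had 620.0, 638 and 586.5 normalized counts in the L3MBTL3 shRNA libraries, against 559.6, 556 and 497 in scramble. The groups did not overlap, and the means were 615 ± 26.1 and 537 ± 35.3 (SD, n = 3 each). Its log2 fold change was 0.20 (SE 0.0670, limma adjusted p = 0.123). With the replicate number as a block, limma gave an adjusted p of 0.0307, and Rpl7l1 was then the 1 member called, where that fit called 22.2% of all genes. Scramble replicate 3, in which the other members were high, was its lowest library, and without it the log2 fold change was 0.14 (adjusted p = 0.122).

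Rpl22l1, the paralog that can stand in for Rpl22, had 158, 159.9 and 157 normalized counts in the L3MBTL3 shRNA libraries, against 174, 186 and 214 in scramble. The groups did not overlap, with means of 158 ± 1.40 and 191 ± 20.45 (SD, n = 3 each) and a log2 fold change of -0.27 (SE 0.106, limma adjusted p = 0.165; 0.0975 with the block). Rpl22 itself had 1018, 1040.1 and 1100.1 in the L3MBTL3 shRNA libraries, against 1063, 1052 and 1291 in scramble, overlapping groups (log2 -0.10, adjusted p = 0.451). Per base of transcript, Rpl22l1 stood at 12.9 ± 0.558% of Rpl22 in L3MBTL3 shRNA libraries and 14.5 ± 0.599% in scramble. The level of both percentages depends on the length of 474 bases used for Rpl22. Next among the lower members were Rps27rt (log2 -0.20, adjusted p = 0.320) and its parent Rps27 (log2 -0.19, adjusted p = 0.324). Rps27 had 201, 184 and 187 normalized counts with L3MBTL3 shRNA, against 196, 208 and 253 with scramble, and the groups overlapped. Without scramble replicate 3 the log2 fold changes were -0.09 for Rps27rt and -0.08 for Rps27.

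The subunits did not part. All 31 40S genes, all 43 60S genes and all 3 stalk genes were below 0, with medians of -0.10, -0.10 and -0.11. The 4 tested paralogs ranged from Rpl22l1 to Rpl7l1, that is from -0.27 to 0.20. Rps6, the target of the S6 kinases, had 579, 603 and 586.5 normalized counts in L3MBTL3 shRNA libraries, against 608, 613 and 741 in scramble (log2 -0.14, adjusted p = 0.297), without overlap. Rplp0 had 678, 677 and 671, against 652, 682 and 849, and overlapped. Genes of ribosome assembly gave 1 call: of 56 tested biogenesis factors, Pno1, which helps mature the small subunit, fell (329 against 414 normalized counts on average, log2 -0.33, adjusted p = 0.0479), where 3.32% of all genes were called. The Pno1 call was lost with DESeq2 (adjusted p = 0.0616), with no filter on low values (limma adjusted p = 0.0539) and with scaling by the total of other genes (limma adjusted p = 0.0561). Its limma adjusted p was 0.234, 0.182 and 0.102 without L3MBTL3 shRNA replicates 1, 2 and 3, and 0.0566 and 0.105 without scramble replicates 1 and 2. No other gene passed in that list, and no gene passed among 22 TOP messages, 14 genes of RNA polymerase I, 19 mTORC1 and TOP regulators, 12 genes of MYC and ribosome stress and 77 mitochondrial ribosomal proteins. With the replicate block, which called 22.2% of all genes, Nop58, Wdr75, Gnl3, Nap1l1, Taf1d, Eif4ebp1, Eif4e, Max, Mlx and Mdm4 also fell, and Cd3eap, Rptor and Tsc2 rose. In that fit the 2 tested myeloid markers, Cd68 and Fcgr3, fell too. Of the 6 tested T cell markers, Cd2 rose. The part of these markers in the members' values was not tested.

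**Figure D4:**
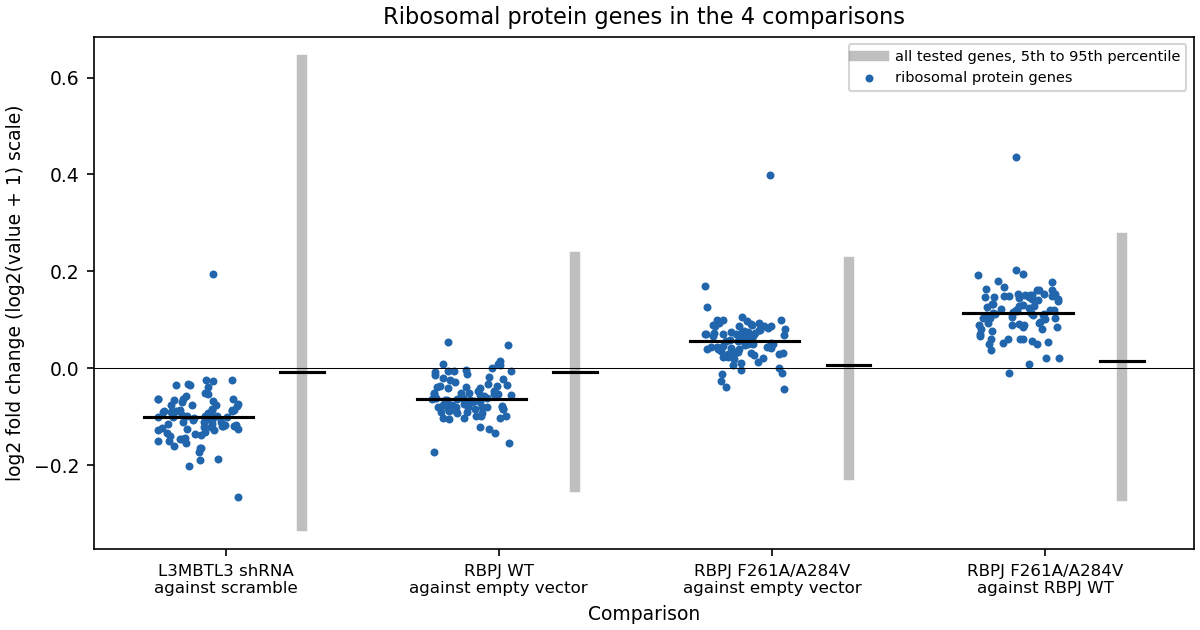
Log2 fold changes of the tested ribosomal protein genes (points, with a black line at the median) in the 4 comparisons, beside the range from the 5th to the 95th percentile of all tested genes (grey bar, black line at the median). Member medians are -0.10, -0.06, 0.06 and 0.11, the members lie within the bars apart from Rpl3l, and no member passed the test in any comparison.

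In the rescue no ribosomal protein gene passed the test either, and the replicate divide was wider than any difference between the vectors. The SE of a member's log2 fold change had a median of 0.294, and of 0.0648 when the replicate number was a block. Fits without the block hold no term for the divide, whose median shift was 0.79 in the members and -0.02 in all tested genes. The shares of all genes that passed in those fits are therefore not a like-for-like background for the members. The group means of the share of reads, 0.549 ± 0.161% with F261A/A284V, 0.594 ± 0.143% with RBPJ WT and 0.619 ± 0.149% with empty vector (SD, n = 3 each), weigh the sides differently because the merged pairs fall on different sides, and no order is read from them.

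For RBPJ WT against empty vector, 0 of 84 members were called (background 0.248%; with the replicate block 0, background 2.23%). With limma, edgeR and DESeq2, 0 members passed an unadjusted p under 0.05, where limma passed 3.4% of all genes. No member had groups without overlap, against 1.87% of all genes lower and 1.46% higher. For the 82 members whose sides of the replicate divide did not overlap, this was fixed beforehand. Each group holds libraries of both sides, so the count says nothing of the vectors for them. The median log2 fold change was -0.06, against -0.01 for all genes, with 77 members below 0. It was -0.05 within replicates 1 and 2 and -0.06 within replicates 3 and 4. With log2 depth as a covariate it was -0.0016, and 40 of 84 members lay above 0. The lowest values were again those of Rpl22l1 (-0.17), Rps27 (-0.15) and Rps27rt (-0.13), and the highest those of Rps15a (0.05), Rpl35a (0.05) and Rpl21 (0.02). Rpl22l1 had 121, 120.4, 144 and 170.1 normalized counts in RBPJ WT libraries 1 to 4, against 132, 128, 174 and 196 in empty vector, lower in each of the 4 numbered pairs. Its adjusted p was 0.9999 in the fit of 12 libraries and 0.411 with the block, and its log2 fold change ranged from -0.27 to -0.06 over fits without 1 library, nearest 0 without empty vector replicate 4. Rps15a, a 40S protein, had 329, 336, 427 and 475 with RBPJ WT, against 321, 323, 420.3 and 442 with empty vector.

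For RBPJ F261A/A284V against empty vector, 0 of 84 members were called (background 0.0171%; with the replicate block 0, background 0.65%). At an unadjusted p under 0.05, 0 members passed with limma, edgeR or DESeq2 (background 2.05% with limma). Groups without overlap were found for 0 members, against 1.04% of all genes lower and 0.881% higher. Here too the replicate divide fixed this count beforehand for 82 members. The median log2 fold change was 0.06, with 78 members above 0, against 0.01 for all genes, and it was 0.06 within replicates 1 and 2 and 0.05 within replicates 3 and 4. With log2 depth as a covariate it was -0.03, and 22 of 84 members lay above 0. The highest values were those of Rpl3l (0.40), Rpl21 (0.17) and Rpl37a (0.13), all but the first genes of core 60S proteins, and the lowest those of Rpl30 (-0.04), Rpl29 (-0.04) and Rpl22l1 (-0.03). Rpl21 had 135, 113.5, 191 and 178 normalized counts with F261A/A284V, against 112, 124, 142 and 164 with empty vector. It was lower in the F261A/A284V library only for replicate 2. Over fits without 1 library its log2 fold change ranged from 0.06 to 0.31, lowest without F261A/A284V replicate 3.

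For RBPJ F261A/A284V against RBPJ WT, 0 of 84 members were called (background 0.316%). The 3 tools gave 0 members at an unadjusted p under 0.05 (background 4.62% with limma). Groups without overlap were found for 0 members, against 1.75% of all genes lower and 1.94% higher, again a count that the replicate divide fixed beforehand for 82 members. Of the 84, 83 were above 0, Rpl29 alone being below (-0.01), with a median of 0.11 against 0.01 for all genes. The medians were 0.11 within replicates 1 and 2 and 0.12 within replicates 3 and 4. The highest values were those of Rpl3l (0.44), Rps26 (0.20), a 40S protein at the messenger RNA exit, and Rps27rt (0.19). Rps26 had 214, 175, 365 and 337 normalized counts with F261A/A284V, against 169, 169.8, 295.5 and 306 with RBPJ WT, and was higher in each of the 4 numbered pairs. With the replicate block its adjusted p of 0.137 was the lowest among the members. Over fits without 1 library its log2 fold change ranged from 0.04 to 0.39, lowest without F261A/A284V replicate 3. The replicate block fit of all 12 libraries gave 25 members with an unadjusted p under 0.05, where 19.9% of all genes passed. It called 0 members, where 4.74% of all genes were called. On 3 of the 4 numbers the F261A/A284V library was also the shallower of the pair. With log2 depth as a covariate the median was -0.02 and 23 of 84 members lay above 0. The 3 rescue comparisons share libraries, so their values for a gene are not independent of each other.

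Rpl3l had the largest log2 value in both comparisons of F261A/A284V, at counts close to the filter. It had 16, 13, 17 and 6 reads in the F261A/A284V libraries, 7, 19, 7 and 10 with RBPJ WT and 14, 10, 9 and 7 with empty vector, and the groups overlapped. The means were 13.3 ± 4.70, 10.5 ± 3.12 and 10.3 ± 2.18 normalized counts (SD, n = 3 each), and the adjusted p was 0.9999 against empty vector, by limma. Because of the merged pairs, these means weigh the sides of the replicate divide differently. Over fits without 1 library its log2 fold change ranged from 0.08 to 0.60 for F261A/A284V against empty vector and from 0.11 to 0.63 for F261A/A284V against RBPJ WT, lowest without F261A/A284V replicate 3 in both. Among the related lists, limma called 0 genes in every rescue comparison. With the block, Tsc1, an inhibitor of mTORC1 signalling, rose with RBPJ WT against empty vector (410 against 353 normalized counts, adjusted p = 0.0272), 1 of 19 genes in its list where 2.23% of all genes were called. Tsc1 fell with F261A/A284V against RBPJ WT (351 against 410, adjusted p = 0.0165), as did the mTORC1 subunit gene Mlst8 (370 against 444, adjusted p = 0.00778), 2 of 19 where 4.74% of all genes were called. Of the 4 tested myeloid markers, the block fit called 1 for RBPJ WT against empty vector and 2 for F261A/A284V against RBPJ WT. The median log2 fold changes of the 4 were -0.16 and 0.15, against -0.01 and 0.01 for all genes. For F261A/A284V against empty vector the block fit called 0 of them, with a median of -0.40 against 0.01. Itgam averaged 13.8 normalized counts with RBPJ WT, against 49.2 with empty vector (log2 -1.74, block adjusted p = 5.17e-05). It averaged 30.2 with F261A/A284V, against 13.8 with RBPJ WT (log2 1.09, block adjusted p = 0.00508), and Cd68 averaged 169 against 120 (log2 0.47, block adjusted p = 0.0102). The remaining tested myeloid markers went the other way in that comparison and were not called. Without the block neither Itgam nor Cd68 passed (limma adjusted p = 0.105, 0.603 and 0.549). The part of the myeloid markers in the values above was not tested.

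Paralogs were set beside their parents per base of transcript, since each pair shares a library. Rpl7l1 stood at 50.5 ± 1.61% of Rpl7 in L3MBTL3 shRNA libraries and 43.7 ± 8.33% in scramble, and at 56.8 ± 10.1% with F261A/A284V, 54.5 ± 10.9% with RBPJ WT and 52.7 ± 10.8% with empty vector (SD, n = 3 each). Rps27l, which p53 induces in human cells, stood at 54.3 ± 3.08% of Rps27 in L3MBTL3 shRNA libraries and 52.9 ± 3.88% in scramble. In the rescue Rps27l was at 66.2 ± 7.83% of Rps27 with F261A/A284V, 69.2 ± 7.59% with RBPJ WT and 62.2 ± 7.34% with empty vector. The rescue means of these ratios weigh the sides of the replicate divide differently, because the merged pairs fall on different sides. No order of the vectors is read from them. Rpl36al exceeded its parent, at 119 ± 4.58% of Rpl36a with L3MBTL3 shRNA and 114 ± 5.53% with scramble, whereas Rpl3l stayed at 0.807 ± 0.169% of Rpl3 with L3MBTL3 shRNA and 0.902 ± 0.302% with scramble. In the knockdown the ranges of these ratios over the libraries overlapped between the groups for every pair but Rpl22l1, at 12.3 to 13.3% with L3MBTL3 shRNA and 14.1 to 15.2% with scramble. No test was made of these ratios.

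**Figure D5:**
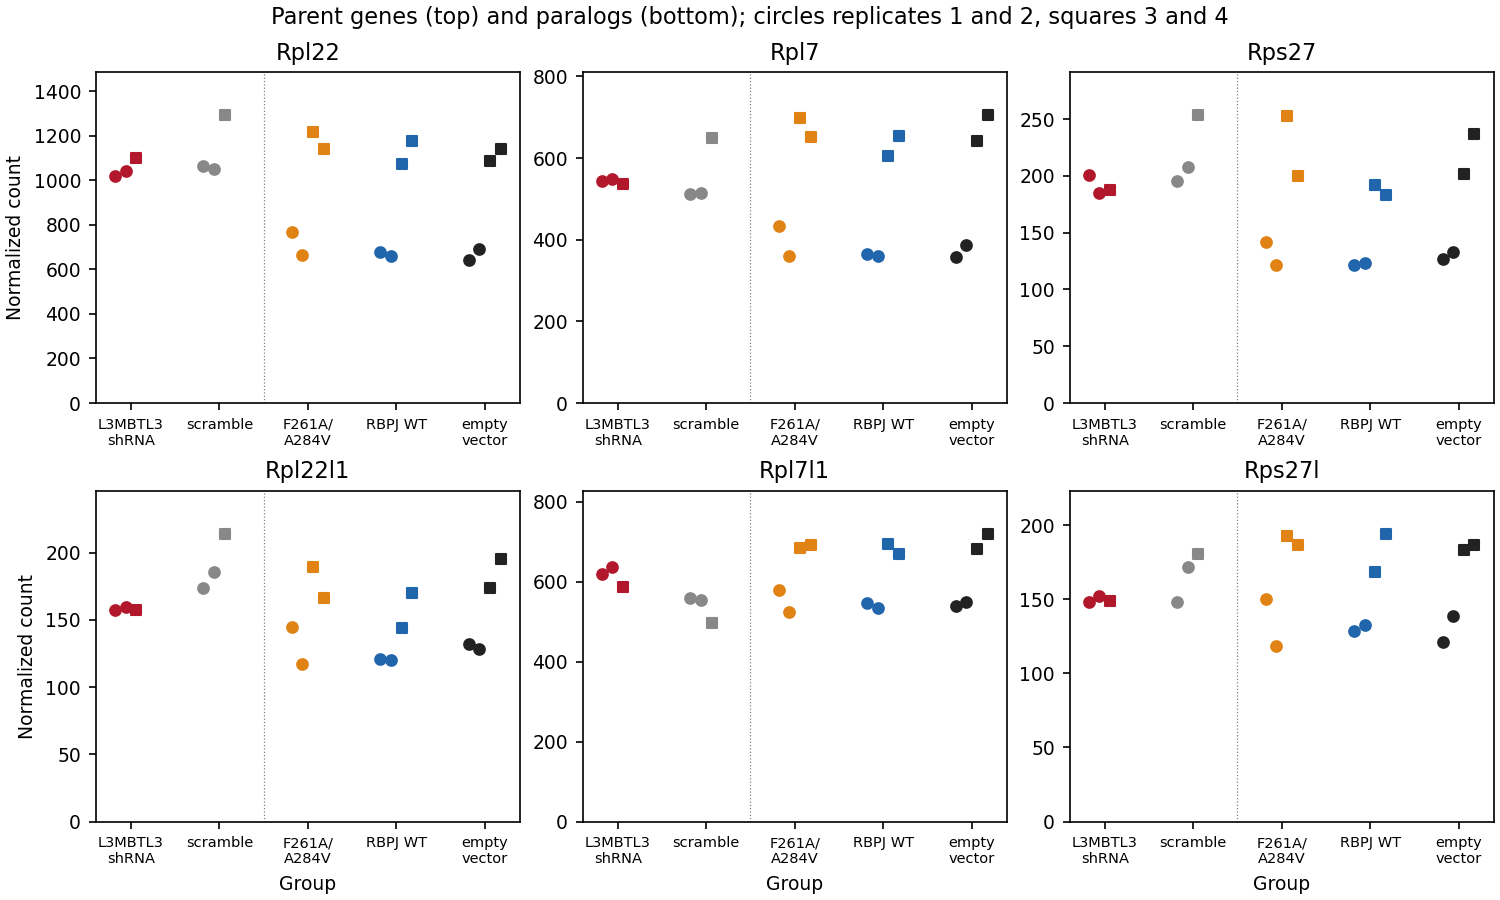
Normalized counts of 3 parent genes (top) and their paralogs (bottom) in every library, by group; circles are replicates 1 and 2, squares replicates 3 and 4, and the dotted line parts the knockdown from the rescue. In the rescue the squares lie above the circles of the same group in each panel, by less in Rpl7l1 than in Rpl7, and in the knockdown Rpl7l1 alone has all L3MBTL3 shRNA libraries above all scramble libraries.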

How the data were processed

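Each experiment has 1 table of 24391 genes, deposited by the authors. The submitters' processing notes name the build mm9 and the tools TopHat2 2.1.1 and DESeq2 1.24.0. Counter, annotation, strand setting and treatment of duplicate reads are not named in the labels or files. The deposited values are a signal, gene counts divided by 1 size factor per library: dividing by the value of 1 read gave whole reads for 100% of the values, to within 0.1 read. The tables were normalized separately, so tests stayed within a table. Libraries held 3553505 to 7921533 recovered reads, which limits the precision of genes with few reads.

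A gene entered the tests at 10 or more normalized counts in 3 libraries of the knockdown (11586 genes) or 4 of the rescue (11691 genes). Differences in log2(value + 1) were tested in R 4.3.3 by limma 3.58.1 (limma-trend, 2-sided) with a group term alone, in 1 fit per table. Calls needed p under 0.05 after Benjamini-Hochberg adjustment across every gene of the fit. Fold changes refer to log2(value + 1) and so understate those of low genes. Alternatives were a replicate block, pseudocounts of 0.5 and 10, no filter, quantile scaling, scaling by the other genes, a term for the replicate divide, fits within its sides, merged libraries, leaving out each library, edgeR 4.0.16 and DESeq2 1.42.0 on recovered reads and, added after seeing the data, log2 depth as a covariate. The scripts were tested on simulated data.

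Same-numbered libraries deviated together across genes (correlations of 0.240 to 0.539 in the knockdown and 0.550 to 0.815 in the rescue), so the block is given where it changes a call. In the knockdown, libraries of other numbers correlated at -0.469 to 0.332, a range that overlaps that of the same-numbered ones. In the rescue, libraries of other numbers on the same side of the divide correlated at 0.559 to 0.832, and across it at -0.761 to -0.491.

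Lengths came from GENCODE M21 basic (GRCm38), for the best-ranked principal transcript and the shortest of those ranked equally, and promoters from RefSeq (GRCm38.p6). Named genes were the 3 largest rises and falls per comparison where too few passed, the stalk genes and Rpsa, paralogs with their parents, and the extremes of read density and of the replicate difference. Other genes are named as background examples or by a count. The members and lists were chosen with earlier results of these data known. Some results of single genes and of 1 list are not reported here.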

Additional observations from a re-analysis of the deposited data

How the results depend on the processing

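Calls of ribosomal protein genes stayed at 0 in each comparison under every alternative run, except that the replicate block in the knockdown called 1, Rpl7l1 (log2 0.20, adjusted p = 0.0307; 0.0944 to 0.368 under its other alternatives). The block changed no other call of a member. On recovered reads edgeR called 320 genes higher and 152 lower in the knockdown, and DESeq2 456 and 199, against 256 and 129 with limma. The share of reads of the L3MBTL3 shRNA libraries was 0.511% without the paralog genes, which counts fewer genes.

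The medians of the members ranged over fits without a library from -0.16 to -0.02 in the knockdown, -0.22 to 0.09 for RBPJ WT against empty vector, -0.09 to 0.23 for RBPJ F261A/A284V against empty vector and -0.02 to 0.29 for RBPJ F261A/A284V against RBPJ WT. In the rescue, leaving out 1 library leaves unequal numbers on the sides of the replicate divide. The median changed sign for RBPJ WT against empty vector without empty vector 3 or 4 or RBPJ WT 1 or 2, for RBPJ F261A/A284V against empty vector without F261A/A284V 3 or 4 or empty vector 1 or 2, and for RBPJ F261A/A284V against RBPJ WT without F261A/A284V 3 or 4 or RBPJ WT 1 or 2. With log2 depth as a covariate the rescue medians were -0.0016, -0.03 and -0.02 in that order.

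Single genes that changed sign, all of them far from the threshold, ranged over fits without a library as follows. For RBPJ WT against empty vector, Rps27 ranged from -0.29 to 0.0088, Rps27rt from -0.27 to 0.042, Rps15a from -0.045 to 0.14, Rpl35a from -0.076 to 0.17 and Rpl21 from -0.080 to 0.11. For RBPJ F261A/A284V against empty vector, Rpl30 ranged from -0.17 to 0.11, Rpl29 from -0.16 to 0.09, Rpl22l1 from -0.13 to 0.10 and Rpl37a from -0.0017 to 0.29. For RBPJ F261A/A284V against RBPJ WT, Rpl29 ranged from -0.13 to 0.12 and Rps27rt from -0.0076 to 0.36. Within replicates 1 and 2, Rpl21 was at -0.052 for RBPJ WT against empty vector, Rpl29 at 0.00019 and Rpl22l1 at 0.0050 for RBPJ F261A/A284V against empty vector, and Rpl29 at 0.016 for RBPJ F261A/A284V against RBPJ WT. The cause was not tested.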
